A study of Mus musculus with 8 samples.

Results

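Osteopontin is the secreted product of Spp1, and its transcript was followed here together with those of its cell-surface receptors. The 10 genes were chosen by name from the count table: Spp1 for the ligand, Cd44, the integrin alpha subunits Itgav, Itga9 and Itga4, and the integrin beta subunits Itgb1, Itgb3, Itgb5, Itgb6 and Itgb8. They are 10 of the 46603 genes counted, and 8 of them were among the 13605 genes read deeply enough to be tested. Itgb3 and Itga4 were the 2 that were not.

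The libraries came from biliary epithelial cells of adult mouse liver, and the comparison asked how cells that keep a histone label differ from those that have lost it. Each of 4 mice, JV602, JV621, JV624 and JV6314, gave 1 library of label-retaining cells (LLRCs, EGFP+) and 1 of non-LRC cells (EGFP−). All mice were R26rtTA het/H2B-EGFP het on a mixed C57BL/6 and CBA background, so the controls carried both alleles and had the same treatment: doxycycline from birth to postnatal day 5, with the sort at 8 weeks of age. CD45+ cells were first depleted with beads, and both populations were then gated as EpCAM+ and CD45−, so that EGFP alone separated them. The Rosa26 promoter that drives rtTA is active in most cell types, and hematopoietic cells of this line make H2B-EGFP without doxycycline. These features limit what a green cell stands for.

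Osteopontin is an acidic glycoprotein of bone, kidney and epithelial ducts, and in the liver it is a common stain for bile duct cells. It holds an Arg-Gly-Asp motif that integrins containing alpha v bind, a neighbouring stretch that thrombin exposes for alpha 9 beta 1 and alpha 4 beta 1, and regions reported to bind CD44. An integrin is a pair of 1 alpha and 1 beta subunit, so a subunit's transcript does not by itself give the amount of receptor at the surface. The coding stretch of Spp1 that spans the Arg-Gly-Asp motif is shown because it is the point at which the ligand and the integrins of this set meet.

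Spp1 coding strand, chr5:104439457-104439528: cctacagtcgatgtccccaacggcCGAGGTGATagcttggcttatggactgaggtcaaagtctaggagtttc

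It is read 5′ to 3′ on the plus strand of GRCm38, as transcript Spp1-201 of GENCODE M21 gives it. The capitals mark the 9 bases of the Arg-Gly-Asp codons, which are codons 144 to 146 of the 294 of that transcript's reading frame and lie in exon 6 of 7. The lower-case bases after them begin with those that encode the segment that alpha 9 beta 1 and alpha 4 beta 1 bind. Of the 7 annotated transcripts of Spp1, 6 carry these codons and the other is a short model. Counts were made per gene, so they do not tell the transcripts apart.

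The sort and the libraries were examined first. Total counts were between 7860021 and 9851819 in LLRC libraries and between 4670132 and 8056103 in non-LRC libraries, and 3 counts, used below as the detection floor, are worth 0.291 to 0.626 CPM. CPM here are counts scaled to a common library total by trimmed mean of M-values (TMM). The cholangiocyte markers, 11 of 11 of which were read, summed to between 2170 and 2759 CPM in LLRC libraries and between 1438 and 2447 CPM in the others. Epcam stood at 583.5 ± 48.6 (SD, n = 4) against 551.0 ± 148 CPM and Krt19 at 116 ± 28.0 against 134 ± 33.1 CPM. On the log2 scale 10 of the 11 markers were above 0 (median 0.33), Krt19 being the exception, and 1 was higher in LLRCs at an unadjusted p below 0.05, the chloride channel gene Cftr at 149 ± 55.5 against 55.0 ± 29.98 CPM (unadjusted p = 0.0141 by edgeR). Counts of the CD45 gene Ptprc were 5, 34, 14 and 59 in LLRC libraries (mice in the order given above) and 0, 0, 0 and 7 in non-LRC libraries, and Cd3e and Cd79a had 0 counts in every library. The other leukocyte markers did not follow Ptprc. Lcp1 had 27, 5, 15 and 24 counts in LLRC libraries and 62, 0, 64 and 1 in the others. Cd52, Laptm5 and Coro1a were read only in non-LRC libraries, at 10 counts or fewer, and Tyrobp had at most 6 counts in any library. The endothelial markers summed to between 36.5 and 83.3 CPM in LLRC libraries and between 289 and 1331 CPM in the others, with 13 of 15 tested and all 13 lower in LLRCs at an unadjusted p below 0.05, though several of them are among the genes the study picked from these libraries. The sums of the other lists overlapped or were small, although sums led by a single gene hide their members: hepatocyte markers at 2579 to 3078 CPM (LLRC) and 2012 to 5377 CPM (non-LRC), stellate and fibroblast markers at 2470 to 9948 and 3519 to 9181 CPM (mostly Rgs5), leukocyte markers at 3.199 to 9.22 and 1.78 to 11.8 CPM, and platelet markers at 2.04 to 4.85 and 0.626 to 6.51 CPM. Of 9 hepatocyte markers tested, 8 were below 0 and 5 were lower in LLRCs at an unadjusted p below 0.05 (median log2 fold change -1.62). Over fits that left out each library in turn the median lay between -1.91 and -0.61 and the count between 1 and 5, and with the mouse as a block the count was 1. Of 7 stellate and fibroblast markers tested, 5 were below 0 (median log2 fold change -1.90) and 2 were lower at an unadjusted p below 0.05, 1 to 4 when each library was left out, Lrat at 5.92 ± 2.12 and 46.6 ± 22.7 CPM and Dcn at 341 ± 202 and 1278 ± 929 CPM. Kupffer cell markers were at 0 to 0.388 CPM (LLRC) and 0.501 to 22.4 CPM (non-LRC).

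A pair of non-LRC libraries stood apart from the rest. In the non-LRC library of JV621, 176 of the 5597 genes that reached at least 10 CPM in each of the other libraries had 0 counts (3.14%), against 0 to 21 genes in any other library. That library also had the highest endothelial sum. The non-LRC library of JV6314 held 776 CPM of the 5 pancreatic acinar markers, which summed to at most 2.38 CPM elsewhere. For the genes that these libraries move most, values without them are given beside the result, and most lists of other genes are given with the range over fits that leave out each of the 8 libraries in turn.

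None of the 8 genes tested differed between LLRCs and non-LRC cells at an adjusted p below 0.05, where 0% of the 13605 genes did by edgeR's quasi-likelihood test, whose smallest adjusted p was 0.0809. The alpha v subunit Itgav was the 1 gene of the set with an unadjusted p below 0.05, which 5.16% of all genes had. Which genes reach it depends on the setting: with the mouse as a block, Itgb6 had an unadjusted p of 0.0216 and Itgav 0.0587, and with limma voom Itgav had 0.0261, Itgb6 0.0105 and Itgb8 0.0391. On TMM-scaled CPM, Itgav was also the 1 gene whose LLRC libraries all lay above its non-LRC libraries, as did 2.15% of all genes. By share of all counts, without TMM, the groups of Itgav overlapped. On that TMM scale Itgav and Itgb6 were higher in LLRCs in every mouse, as were 7.74% of all genes, and 0 of the 8 were lower in every mouse, as were 5.53%. By share of all counts, Itgav was lower in LLRCs in JV624 and Itgb1 was lower in every mouse. The percentages of all genes without TMM were not computed. The fold change was above 0 for 6 and below 0 for 2, and the median on the log2 scale was 0.48, beside -0.01 for all genes tested.

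**Figure D1:**
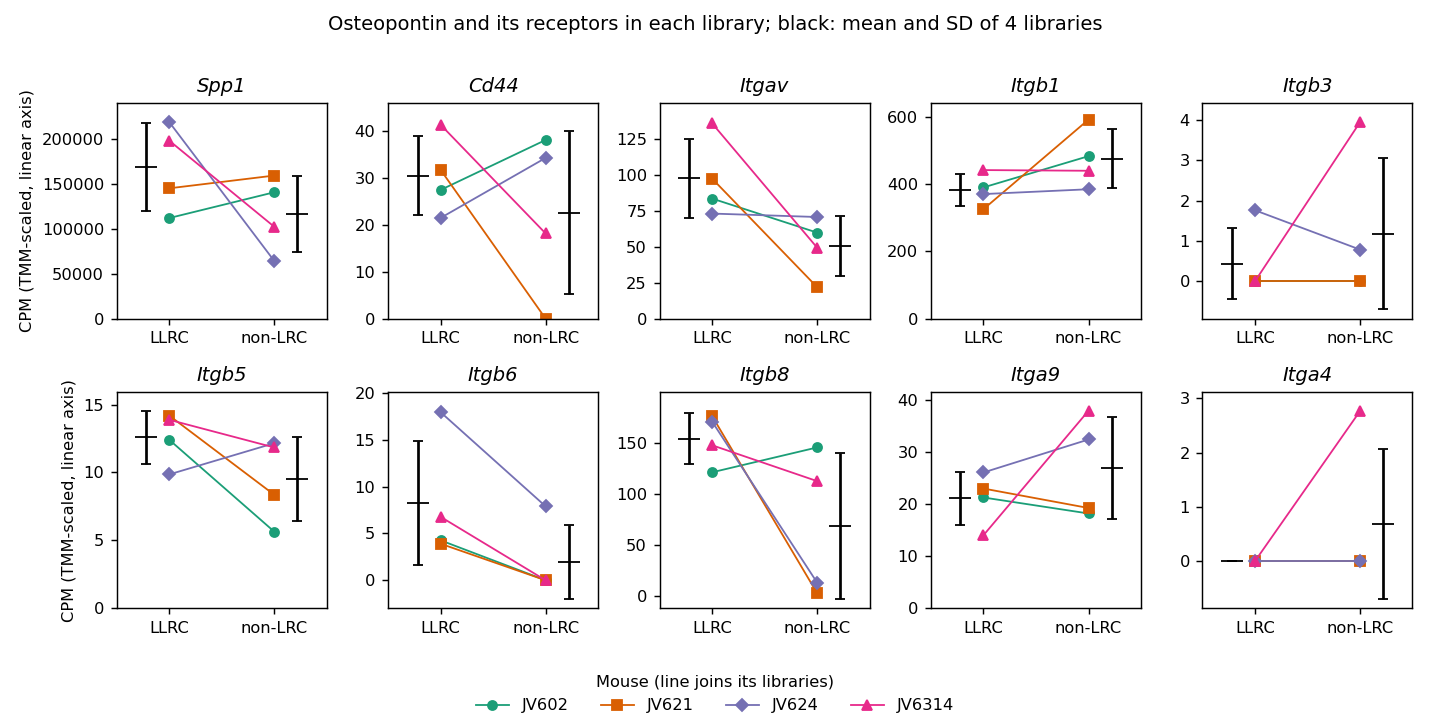
TMM-scaled CPM (linear axes, 1 scale per gene) of the 10 genes in the 4 LLRC and 4 non-LRC libraries, with a line joining the libraries of each mouse and, in black, the mean and SD of each group. On this scale, though not by share of all counts, the Itgav libraries separate by group. Spp1 and Cd44 fall in some mice and rise in others, and Itgb8 is near 0 in 2 non-LRC libraries.

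Spp1 (chr5:104435118-104441050, plus strand) was the gene with the most counts in 8 of 8 libraries. Its share of all counts in LLRCs was 13.0% in JV602, 14.1% in JV621, 18.9% in JV624 and 18.1% in JV6314, an order of mice kept for every gene below. Its share in non-LRC cells was 13.9%, 12.9%, 7.85% and 11.1%. The 95% Wilson intervals reach at most 0.0285 percentage points to either side, for counting error only. The gene next in counts was Gm10925 in every library, a pseudogene that resembles mitochondrial sequence, and Spp1 had between 2.11 and 5.28 times its counts. Per kilobase of exon Spp1 was first in 6 of 8 libraries, since Gm10925 lay above it in the non-LRC libraries of JV602 and JV6314. The 37 mitochondrial genes themselves have 0 counts in this table.

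As CPM, Spp1 stood at 111910, 144975, 218645 and 197992 in LLRCs. The non-LRC values were 140587, 159148, 64249 and 102241. The groups overlapped: Spp1 was lower in LLRCs in JV602 and JV621, with ratios of LLRC to non-LRC of 0.796 and 0.911, and higher in JV624 and JV6314, with ratios of 3.40 and 1.94. The direction in JV621 turns with the scaling, since its share of all counts was 14.1% in LLRCs and 12.9% in non-LRC cells. The means were 168381 ± 48785 and 116556 ± 42160 CPM (SD, n = 4), a log2 fold change of 0.53 (SE 0.41, adjusted p = 0.9999 by edgeR's quasi-likelihood test) and an exact two-sided permutation p of 0.171. The fold of 1.44 spans 0.824 to 2.53 at 2 standard errors, so neither a modest fall nor a rise of over 2-fold is outside it. A transcript of this abundance also weighs on the scale of the others, which the ratio of Spp1 itself does not test. That ratio of means was again 1.44 with Spp1 left out of the library totals, where TMM scaling still applied. On unscaled library sizes it was 1.40, with an exact two-sided permutation p of 0.0571.

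Part of the Spp1 locus was not countable. Of its exon bases, 18.8% are shared with Gm42793 on the same strand, and union counting leaves out reads that fall on both. Gm42793 had 82 to 449 counts, at most 0.0455% of those of Spp1. The transcripts whose log2 CPM followed that of Spp1 most closely over the 8 libraries were Pdcd10 (r = 0.978), Gm14253 (r = 0.970) and Upf2 (r = 0.968). They were chosen as the highest over all genes tested, from 8 libraries that come in pairs from 4 mice, and are given as a description.

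Cd44 (chr2:102811141-102901665, minus strand), the hyaluronan receptor that also binds osteopontin, was read in 7 of 8 libraries. It stood at 27.4, 31.7, 21.5 and 41.3 CPM in LLRCs. Non-LRC cells had 38.1, 0, 34.3 and 18.2 CPM. The groups overlapped, and the outlying value was the non-LRC library of JV621, where 0 counts allow up to 0.626 CPM. Against that floor the LLRC library of that mouse was at least 50.6-fold higher, while JV602 and JV624 went the other way with ratios of 0.721 and 0.627. The floor covers counting error only. Cd44 is among the 176 genes (3.14%) that had 0 counts there but at least 10 CPM in each other library, so the bound may not hold for the cells.

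The means of Cd44 were 30.5 ± 8.35 and 22.6 ± 17.4 CPM (SD, n = 4) and gave a log2 fold change of 0.43 (SE 1.02, adjusted p = 0.9999 by edgeR). Without the non-LRC library of JV621 the non-LRC mean was 30.2 CPM and the log2 fold change 0.02. With limma voom it was 1.70, and with the mouse as a block 1.02. The genes most like Cd44 in log2 CPM over the 8 libraries were Ercc6l2 (r = 0.996), Car13 (r = 0.994) and Fgf12 (r = 0.994), again as a description.

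Itgav (chr2:83724397-83806916, plus strand) encodes alpha v, the subunit shared by several of the integrins that read the Arg-Gly-Asp motif capitalised above. It stood at 83.4, 97.2, 72.9 and 135.6 CPM in LLRCs. Non-LRC cells had 59.7, 21.9, 70.6 and 49.3 CPM. The groups did not overlap, although the lowest LLRC and the highest non-LRC value, both from JV624, differed by a ratio of only 1.03. The other mice had ratios of 1.40, 4.43 and 2.75. By share of all counts, without TMM, the groups overlapped, since JV624 stood at 0.00631% in LLRCs and 0.00862% in non-LRC cells.

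The means of Itgav were 97.3 ± 27.4 and 50.4 ± 20.9 CPM (SD, n = 4), a log2 fold change of 0.95 (SE 0.39, unadjusted p = 0.0382, adjusted p = 0.917 by edgeR). The exact two-sided permutation p of 0.0286, the smallest that 4 libraries against 4 can give, restates that the groups do not overlap on the TMM scale. Over 18 other settings the log2 fold change lay between 0.71 and 1.15 and the adjusted p between 0.443 and 1. The unadjusted p was not below 0.05 in 5 of the 8 fits that left out a library (0.0251 to 0.111 over the 8, the highest without the LLRC library of JV6314), nor with unscaled library sizes (0.109) or the mouse as a block. In bulk RNA, fewer cells that express a gene and less of its RNA per cell cannot be told apart, for this and every other gene here.

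**Figure D2:**
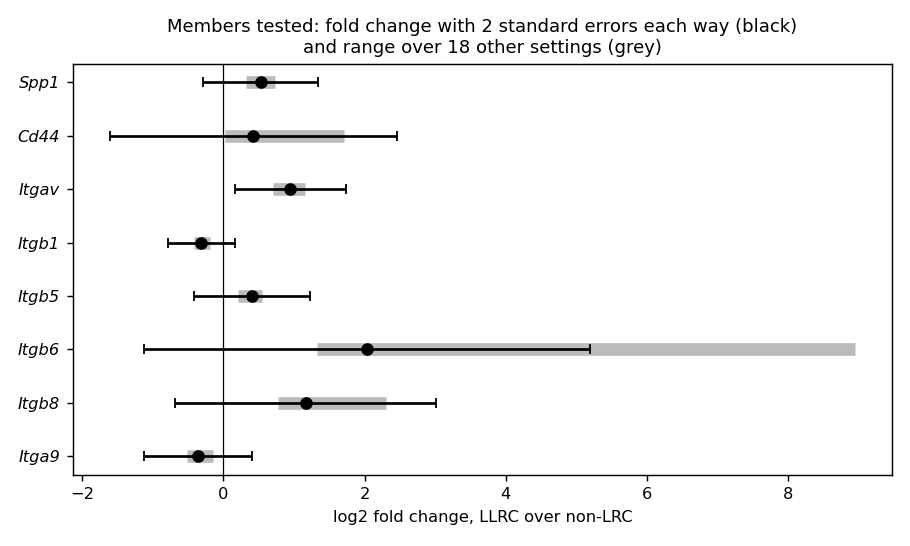
Log2 fold change, LLRC over non-LRC, of the 8 genes tested (points, with bars of 2 standard errors each way) and the range over 18 other settings (grey bands). Itgav at 0.95 is the gene whose bar stays above 0, and the band of Itgb6 runs up to 8.94 without the non-LRC library of JV624.

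Of Itgb3, Itgb5, Itgb6 and Itgb8, whose products pair with alpha v, Itgb8 had the highest mean per length over the 8 libraries. Itgb8 (chr12:119158022-119238802, minus strand), whose product forms alpha v beta 8, an integrin best known for activating latent TGF-beta, stood at 121, 176, 171 and 148 CPM in LLRCs. The non-LRC values were 145, 2.92, 13.3 and 112 CPM. LLRC libraries thus lay in a narrow range while the non-LRC libraries fell into a high pair, JV602 and JV6314, and a low pair, JV621 and JV624, and the groups overlapped through JV602. The low pair rests on 14 and 84 counts and the others on 570 to 1489.

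The ratio of Itgb8 in LLRC to non-LRC was 60.2 in JV621 and 12.9 in JV624, but 1.31 in JV6314 and 0.833 in JV602. The means were 154 ± 25.1 and 68.5 ± 71.2 CPM (SD, n = 4) and gave a log2 fold change of 1.17 (SE 0.92, adjusted p = 0.9999 by edgeR) and an exact two-sided permutation p of 0.0571. Without the non-LRC library of JV621 the log2 fold change was 0.77, and without that of JV602 it was 1.85 with a non-LRC mean of 42.9 CPM. With the mouse as a block it was 2.26. The endothelial sum was 1331 CPM in the non-LRC library of JV621 and 654 CPM in that of JV624, where Itgb8 was low, but 915 CPM in that of JV6314, where it was not. The part of other cell types in the Itgb8 values was not tested.

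Itgb6 (chr2:60598292-60722643, minus strand) encodes the beta subunit of alpha v beta 6, an integrin of epithelia that is induced in injured bile ducts. It stood at 4.27, 3.90, 17.9 and 6.77 CPM in LLRCs, on 44, 33, 122 and 61 counts. Among non-LRC libraries it had 0 counts in JV602, JV621 and JV6314 and 50 counts, 7.89 CPM, in JV624. Zero counts allow up to 0.376, 0.626 and 0.592 CPM by counting error alone. Against these floors Itgb6 was at least 11.4-fold, 6.23-fold and 11.4-fold higher in the LLRC library in these mice. It was 2.27-fold higher in JV624, the mouse with the most Itgb6 in both populations.

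The groups overlapped because the non-LRC library of JV624 lay above 3 of the LLRC libraries. The log2 fold change of Itgb6 was 2.03 (SE 1.58, adjusted p = 0.9999 by edgeR). With the mouse as a block it was 5.00 (adjusted p = 0.992) and with limma voom 4.58 (adjusted p = 0.622). Without the non-LRC library of JV624 it was 8.94 (adjusted p = 0.175), a fitted value set largely by the prior count, since the remaining non-LRC libraries are at 0. Without the LLRC library of JV624 the log2 fold change fell to 1.33 and the LLRC mean from 8.22 to 4.98 CPM, and without any 1 of the other non-LRC libraries it was 1.60 to 1.65. At most 122 counts per library stand behind these values.

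Itgb5 (chr16:33829665-33949338, plus strand), whose product forms alpha v beta 5, a vitronectin receptor, was read at a steady low level. It stood at 12.4, 14.2, 9.85 and 13.9 CPM in LLRCs. Non-LRC libraries held 5.64, 8.35, 12.2 and 11.8 CPM. The groups overlapped, with higher values in LLRCs in every mouse but JV624 and a log2 fold change of 0.41 (SE 0.41, adjusted p = 0.9999 by edgeR).

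Itgb3 (chr11:104608000-104670476, plus strand), which gives the classical osteopontin receptor alpha v beta 3 of osteoclasts, had 12 counts in the LLRC library of JV624, 5 in the non-LRC library of JV624, 20 in that of JV6314, and 0 in the other 5 libraries. Zero counts allow at most 0.626 CPM. Too few counts were read to test it in the fit, and the exact two-sided permutation p of its CPM was 0.714. The 20 counts came from the library that also held the pancreatic acinar markers, and without it 5 counts remain in non-LRC cells.

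Itgb1 (chr8:128685654-128733200, plus strand) encodes beta 1, the partner of most alpha subunits, including alpha 9, alpha 4 and alpha v. It stood at 389.7, 325.1, 369.9 and 441.1 CPM in LLRCs. The non-LRC values were 482.4, 591.0, 384.2 and 439.0 CPM. The groups overlapped and the spread was narrow, with means of 381 ± 48.1 and 474 ± 87.6 CPM (SD, n = 4), a log2 fold change of -0.31 (SE 0.24, adjusted p = 0.9999 by edgeR) and an exact two-sided permutation p of 0.143. By share of all counts, without TMM, they did not overlap, at 0.0317% to 0.0452% in LLRCs and 0.0469% to 0.0479% in non-LRC cells. With unscaled library sizes the log2 fold change was -0.36 (unadjusted p = 0.128 by edgeR).

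The highest Itgb1 value of the 8 was that of the non-LRC library of JV621, which had the lowest Itgb8, Itgav and Cd44. The fold of 0.805 spans 0.580 to 1.12 at 2 standard errors, the narrowest span of the 8 genes tested. The other partner subunits of this set are less abundant by far.

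Per kilobase of exon, Itgb1 made up 86.4%, 79.6%, 81.2% and 85.6% of the 5 beta subunits in LLRCs. Non-LRC shares were 88.9%, 98.2%, 94.1% and 88.4%. The share of Itgb8 was 9.90%, 15.9%, 13.8% and 10.6% in LLRCs. The non-LRC shares were 9.89%, 0.179%, 1.20% and 8.35%. The shares were computed after the values had been seen and are given without a test. All 4 LLRC shares of Itgb8 lay above the non-LRC shares, in JV602 by 9.90% against 9.89%, so that the separation rests on JV621 and JV624 and to a lesser degree on JV6314.

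**Figure D3:**
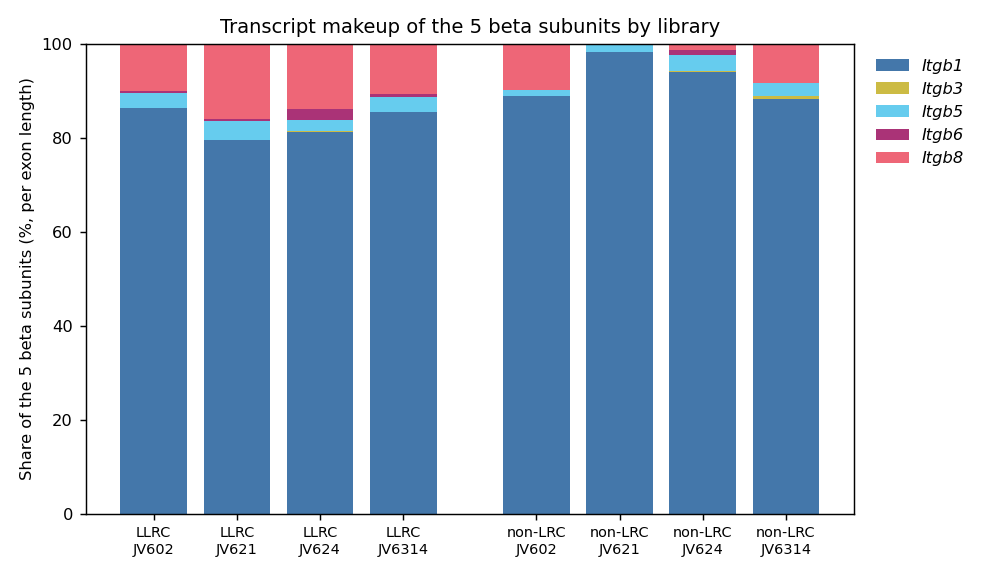
Share of each of the 5 beta subunit transcripts in their sum (%, CPM per kilobase of exon) in each library. Itgb1 makes up 79.6% to 86.4% in LLRCs and 88.4% to 98.2% in non-LRC cells, and Itgb8 shrinks to 0.179% and 1.20% in the non-LRC libraries of JV621 and JV624.

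Itga9 (chr9:118606690-118901003, plus strand) encodes alpha 9, which with beta 1 binds the segment encoded directly after the Arg-Gly-Asp codons. It stood at 21.2, 22.9, 26.0 and 14.0 CPM in LLRCs. Non-LRC cells had 18.2, 19.2, 32.4 and 37.9 CPM. The groups overlapped, and mice were split evenly in direction, with a log2 fold change of -0.35 (SE 0.38, adjusted p = 0.9999 by edgeR). The largest difference was in JV6314, with a ratio of 0.369.

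Itga4 (chr2:79255426-79333123, plus strand) encodes alpha 4, a subunit that is typical of leukocytes. It had 0 counts in all LLRC libraries and in 3 of the non-LRC libraries, and 14 counts, 2.76 CPM, in the non-LRC library of JV6314. Its exact two-sided permutation p was 1. Itga4 was thus not detectable at this depth in 7 of 8 libraries, and the library in which it was read is the one with 776 CPM of acinar markers and 7 Ptprc counts. Whether the acinar material carried these reads was not tested.

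Compared per length, the genes span a wide range. The mean over the 8 libraries was 86449 CPM per kilobase of exon for Spp1, 104.8 for Itgb1, 10.1 for Itgb8, 6.87 for Itgav, 3.92 for Cd44, 3.12 for Itga9, 3.11 for Itgb5, 0.717 for Itgb6, 0.138 for Itgb3 and 0.0247 for Itga4. The ranges of Spp1 and Itgb1, and of Itgb1 and Itgb8, do not overlap. From Itgb8 downward each gene overlaps the next, so that the order of Itgb8, Itgav, Cd44, Itga9 and Itgb5 is not resolved beyond the spread between libraries. Per-length levels take the union of all annotated exons as length, and they are lowered for genes with many unused exons.

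**Figure D4:**
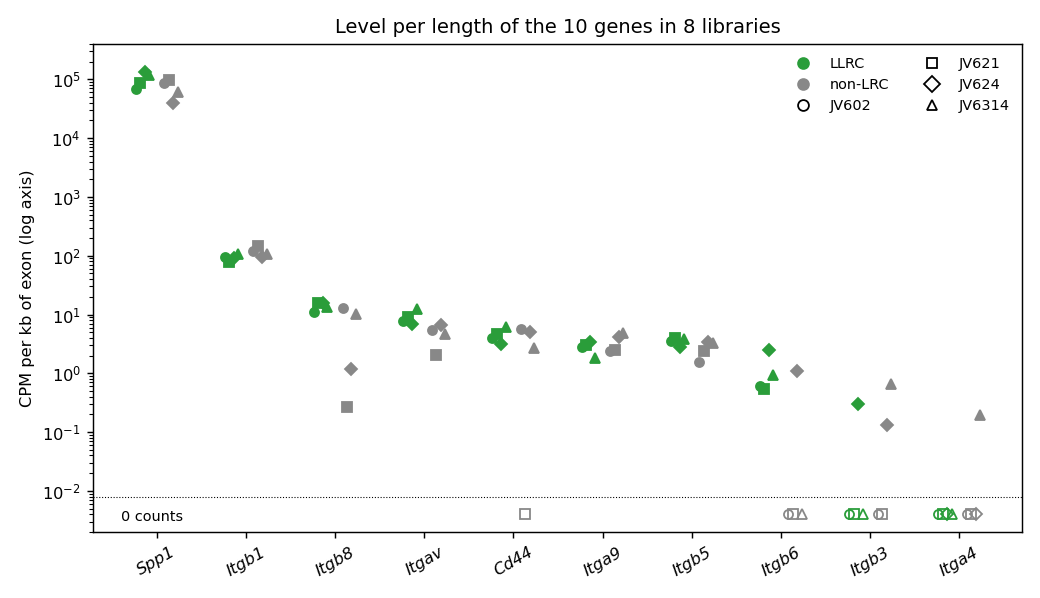
CPM per kilobase of exon (log axis) of the 10 genes in the 4 LLRC (green) and 4 non-LRC (grey) libraries, ordered by the mean, with libraries at 0 counts drawn open under the dotted line. Spp1 lies at 38986 to 132673, Itgb1 at 79.7 to 145, and the other receptors overlap their neighbours.

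The genes around osteopontin were taken from lists of other ligands, proteases, CD44 partners, adhesion proteins, latent TGF-beta and further integrin subunits. Of the 63 genes, 40 were tested and 0 passed an adjusted p of 0.05. At an unadjusted p below 0.05, 0 were higher and 7 lower in LLRCs, where 1.6% and 3.56% of all genes tested were. The median log2 fold change was -0.21, with 16 above 0 and 24 below. With the mouse as a block 1 was higher (Vcan, unadjusted p = 0.0230 by edgeR) and 5 lower, with Zyx (0.0821) and Tgfbr2 (0.0580) no longer among them. Over the fits that left out each library in turn, 0 or 1 were higher and 4 to 8 lower, and the median lay between -0.39 and -0.08.

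Of the ligands, the relatives of osteopontin in the SIBLING family were at or near the detection floor. Dspp and Mepe had 0 counts in all libraries, and Ibsp and Dmp1 had at most 5 and 4 counts in any 1 library. Of 10 other matrix ligands of these integrins 7 were tested, with a median log2 fold change of 0.21 (-0.03 to 0.37 when each library was left out) and none at an unadjusted p below 0.05, or 1 without some libraries. The most abundant per length were Ccn1, a matricellular protein that binds alpha v integrins, at 614 ± 335 and 438 ± 211 CPM (LLRC and non-LRC, SD, n = 4), and the plasma adhesion protein Vtn at 193 ± 148 and 237 ± 86.0 CPM. Without the LLRC library of JV602 the LLRC mean of Vtn was 121 CPM. Vtn is a hepatocyte product, and hepatocyte markers were read in all libraries. The part of hepatocyte RNA in the Vtn values was not tested.

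Of 8 proteases and modifiers of osteopontin, 5 were tested, with a median of -0.59 on the log2 scale (-1.21 to -0.29 when each library was left out) and none at an unadjusted p below 0.05. The most abundant per length were Tgm2, a transglutaminase that cross-links osteopontin, at 66.7 ± 39.9 and 73.6 ± 29.0 CPM (LLRC and non-LRC, SD, n = 4), and Mmp7, a matrix protease that cleaves it, at 7.66 ± 5.53 and 11.5 ± 7.23 CPM. Without the LLRC library of JV602 the LLRC mean of Mmp7 was 4.95 CPM, and without the non-LRC library of JV621 the number of genes of this list at an unadjusted p below 0.05 was 2, both lower. Mmp3 and Mmp9 had 0 counts in all 8 libraries.

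Of 8 ligands and partners of CD44, 5 were tested. The median log2 fold change was 0.09, and its sign was not fixed, since it lay between -0.04 and 0.23 when each library was left out. Rdx and Ezr, which tie the tail of CD44 to actin, were the most abundant per length, at 451 ± 91.4 and 395 ± 105 CPM for Rdx and 136 ± 27.3 and 128 ± 33.4 CPM for Ezr. Their relative Msn had means of 17.7 ± 9.96 and 73.9 ± 67.3 CPM (log2 fold change -2.06, SE 0.68, unadjusted p = 0.0140 by edgeR). The non-LRC mean of Msn was 41.1 CPM and the log2 fold change -1.20 without the non-LRC library of JV621. Has2, a hyaluronan synthase, had 0 counts in all 8 libraries.

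Of 13 integrin adhesion genes 11 were tested, 3 above and 8 below 0 (median log2 fold change -0.24, or -0.40 to 0.06 when each library was left out). Lims1 and Fermt2, which join integrin tails to actin, were the most abundant per length, at 230 ± 30.9 and 253 ± 186 CPM for Lims1 and 109 ± 33.8 and 178 ± 155 CPM for Fermt2. Both non-LRC means were carried by JV621: without it they were 160 and 101 CPM, and the log2 fold changes turned from -0.14 to 0.53 for Lims1 and from -0.70 to 0.12 for Fermt2. The list without that library had 6 genes above and 5 below 0, with a median of 0.06. Lims1 also turned with the mouse as a block (0.11). Zyx, a protein of mature adhesions, stood at 9.45 ± 2.34 and 18.3 ± 4.21 CPM (log2 fold change -0.95, SE 0.37, unadjusted p = 0.0308 by edgeR, or 0.0821 with the mouse as a block). Ilk had at most 1 count in any library, in a gene of which 89.7% of the exon bases are shared with Rrp8 and Taf10, so its count says nothing of its level.

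The latent TGF-beta list, which bears on what alpha v beta 8 and alpha v beta 6 act on, had 7 of 8 genes tested, 4 of them lower in LLRCs at an unadjusted p below 0.05, and a median log2 fold change of -1.29. When each library was left out in turn the median lay between -2.03 and -1.10 and the number lower between 2 and 5. Tgfb2, the most abundant per length, stood at 35.4 ± 15.8 and 77.8 ± 46.6 CPM (log2 fold change -1.14, SE 0.49), and the receptor Tgfbr2 at 18.6 ± 10.4 and 56.5 ± 44.2 CPM (log2 fold change -1.60, SE 0.60, no longer below 0.05 with the mouse as a block). Lrrc32, which tethers latent TGF-beta to the cell surface, had 1, 1, 0 and 2 counts in LLRC libraries and 13, 38, 31 and 74 in non-LRC libraries, at least 20.5-fold lower in LLRCs against a floor of 3 counts per library (adjusted p = 0.105 by edgeR). The study picked Lrrc32 from these same libraries, so its count here is not independent of that choice. Its relative Nrros had 0, 8, 0 and 0 counts against 11, 32, 27 and 58. Without the non-LRC library of JV6314 the non-LRC mean of Lrrc32 fell from 7.26 to 4.82 CPM. Without the non-LRC library of JV621, that of Tgfbr2 was 35.2 CPM (log2 fold change -0.91) and that of Tgfb2 55.6 CPM (log2 fold change -0.64), and 2 genes of the list in place of 4 had an unadjusted p below 0.05. With Lrrc32 at its bound the median of the list was the same, -1.29. Tgfbr1, the next most abundant per length, stood at 51.3 ± 29.3 and 25.0 ± 17.7 CPM (log2 fold change 1.03, SE 0.90), with 2 counts in the non-LRC library of JV621, and Tgfb1 had at most 2 counts in any library.

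The remaining integrin subunits were few. Itga5, which with beta 1 also binds osteopontin, stood at 8.82 ± 5.33 and 6.98 ± 4.28 CPM, while Itga8 had at most 30 and Itgb7 at most 4 counts in any library. Of 9 further subunits 4 were tested, and their median log2 fold change of 0.12 had no fixed sign, lying between -0.12 and 0.31 when each library was left out. The laminin-binding subunits Itga3 and Itga6 were the most abundant per length and stood at 33.1 ± 9.18 and 27.0 ± 18.5 CPM for Itga3 and 36.9 ± 22.8 and 33.8 ± 7.86 CPM for Itga6. Without the non-LRC library of JV6314, where it had 13 counts, the non-LRC mean of Itga3 was 35.2 CPM and its log2 fold change turned from 0.29 to -0.08. Itga1, a collagen-binding subunit, had means of 6.73 ± 2.47 and 48.4 ± 54.8 CPM (log2 fold change -2.84, SE 0.74, unadjusted p = 0.00394, adjusted p = 0.369 by edgeR). With the non-LRC library of JV621 left out, its non-LRC mean was 21.1 CPM and the log2 fold change -1.63 (unadjusted p = 0.00377 by edgeR). Itgb2, the beta subunit of leukocyte integrins, had 0 counts in all 8 libraries.

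The 7 lower genes stand beside the endothelial sums given above, at most 83.3 CPM in any LLRC library and at least 289 CPM in any non-LRC library. In the non-LRC library of JV621, whose endothelial sum was the highest at 1331 CPM, Msn had 825 counts, Itga1 624, Tgfb2 692 and Tgfbr2 576. These were the highest counts of those genes in any of the 8 libraries. The other 3 peaked elsewhere: Zyx had 72 counts there and 151 in the non-LRC library of JV624, and Lrrc32 and Nrros had 38 and 32 there and 74 and 58 in that of JV6314. The lower hepatocyte and stellate markers are given above. The part of RNA from these cell types in the values was not tested. Lrrc32 and Itga1 were called by DESeq2 and by edgeR's exact test, which the quasi-likelihood test did not do.

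**Figure D5:**
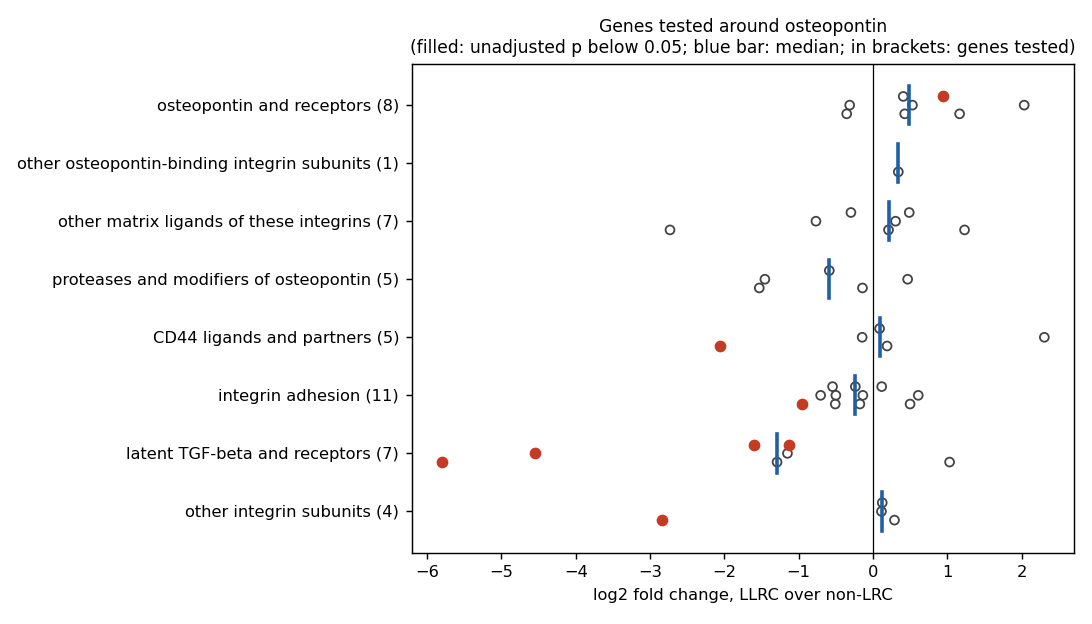
Log2 fold changes, LLRC over non-LRC, of the 8 osteopontin and receptor genes tested and of the 40 tested genes around them, by list, with filled points at an unadjusted p below 0.05 and a bar at each median. The filled points outside the osteopontin set all lie below 0, and 4 of the 7 are in the latent TGF-beta list.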

How the data were processed

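RNA from 8 sorted-cell libraries of 4 mice was sequenced. The authors counted aligned reads on exons of GRCm38.p4 Ensembl genes with HTSeq in union mode without strand, and deposited raw counts per gene. The aligner is not given in the sources used here. The authors' table of their own comparison (log2 fold change, mean log2 CPM, p and adjusted p) was not used. Genes passing filterByExpr were tested with edgeR 4.0.16 in R 4.3.3 (TMM, quasi-likelihood test, Benjamini-Hochberg over 13605 genes, threshold 0.05). The code was also run on simulated counts of independent libraries with known changes. Those counts had no mouse effect and no mix of cell types, so the run says nothing of how the test handles either. Exact two-sided permutation tests of 4 libraries against 4 reach at best p = 0.0286. The main fit and the permutation tests take the libraries as unpaired. Their p-values set the group difference against the spread between the 4 libraries of a group. Only the fit with the mouse as a block uses the pairing. Intervals and floors cover counting error only. Each mouse gave both populations, so mouse names pair the libraries. Their deviations from the group means correlated across genes at 0.0961 (JV602), 0.0737 (JV621), 0.00334 (JV624) and 0.171 (JV6314). DESeq2 1.42.0, limma 3.58.1, other scalings and filters, the mouse as a block and leaving out each library were alternatives. Annotation was GENCODE M21, which names 46091 of 46603 identifiers. The genes and lists were chosen with earlier results of these data known. The text names all 10 genes, up to 4 genes per list with an unadjusted p below 0.05, the 2 highest per length, the 3 most like Spp1 and Cd44, and the sort markers. Genes outside this rule (those at or near 0 counts, further leukocyte markers, Gm10925 and genes sharing exons) were named after their values were seen.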

Additional observations from a re-analysis of the deposited data

Results flagged for a closer look

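Of 19 groups of 4 libraries looked at, 3 held a library whose gap to the others exceeded Dixon's 95% critical value. Chance gives this in about 1 of 20 groups, and in all 3 the other libraries of the group were at 0 counts, so that any read at all would stand apart. Itgb6 stood at 7.89 CPM, on 50 counts, in the non-LRC library of JV624. Itgb3 stood at 1.76 CPM, on 12 counts, in the LLRC library of JV624. Itga4 stood at 2.76 CPM, on 14 counts, in the non-LRC library of JV6314.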

How the results depend on the processing

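Of the 10 genes, 0 passed an adjusted p of 0.05 in each of the 19 settings run, and the 144 fold changes of the 8 tested genes under 18 alternatives all kept their direction and their side of the threshold. Over all genes tested, 0 were called, against 11 with no filter on low counts, 221 with DESeq2 (220 more had no adjusted p), 154 with edgeR's exact test and 0 to 6 when a library was left out, the 6 without the non-LRC library of JV602. Unadjusted calls, 702 in number, ranged from 496 to 1844. With the mouse as a replicate block 0 genes were called, 569 at an unadjusted p below 0.05, and no call by adjusted p changed. Of the pathway genes, 2 were called by DESeq2 and 2 by the exact test. The count of the 10 genes too low to test fell from 2 to 0 with no filter and to 1 when 1 CPM in 2 libraries was asked for. Spp1 was first in 6 of 8 libraries per exon length, 7 per longest transcript and 8 by counts alone. The depth limits Itgb3, Itga4 and Itgb6, where a single library decides the value, and the union counting limits genes that share exons.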
